A study of Mus musculus with 9 samples.

Results

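The thrombospondins and a group of matricellular proteins were followed in ventricles lacking Arid1a in cardiomyocytes. The 10 genes, Thbs1, Thbs2, Thbs3, Thbs4, Comp, Postn, Tnc, Spp1, Fn1 and Timp1, were taken by name from 38293 genes in the count table. All 10 were among the 15318 genes with enough counts to be tested. RNA was sequenced from ventricles of mice at postnatal day 7 (P7). The 5 control libraries came from Arid1a f/f animals without Cre, and the 4 conditional knockout (cKO) libraries from aMHC-Cre;Arid1a f/f animals. Both groups therefore carried the floxed Arid1a alleles, and they differed by a transgene in which the cardiomyocyte promoter of alpha myosin heavy chain drives Cre, which directs the deletion to cardiomyocytes and leaves the gene in other cells of the ventricle. The mice were on a C57BL/6J background and the controls were littermates. The study used pups of both sexes.

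Matricellular proteins are secreted into the extracellular matrix, where they bind receptors, growth factors and proteases more than they carry load. Thrombospondins form 2 structural groups. Thbs1 and Thbs2 assemble as trimers and are known for binding CD36 and CD47 and, in the case of Thbs1, for activating latent TGF-beta. Thbs3, Thbs4 and Comp, the cartilage oligomeric matrix protein, assemble as pentamers, and Thbs4 is known in heart muscle for an intracellular role in the endoplasmic reticulum with the stress sensor ATF6. Postn, Tnc and Spp1 encode periostin, tenascin C and osteopontin, which are low in the resting adult heart and high in developing or injured hearts. Fn1 encodes fibronectin, an adhesive matrix protein, and Timp1 an inhibitor of matrix metalloproteinases.

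Levels are given as CPM, the count of a gene scaled to a common library total, and the total counts per library ranged from 31011055 to 40073801. A gene passed the test at an adjusted p under 0.05 in edgeR's quasi-likelihood test, and was called where it also changed by more than 1.5-fold. Arid1a lay between 128.0 and 148.1 CPM in controls and between 100.3 and 112.9 CPM in cKO libraries, without overlap (log2 fold change -0.39, SE 0.06, adjusted p = 0.00132). Cardiomyocyte markers were abundant in every library, with a sum of 47453 to 55871 CPM over 8 genes in controls and 41881 to 47764 CPM in cKO, while the skeletal muscle genes Myod1 and Pax7 were at 0 in all 9. The libraries fell into 2 sets by Rps3a3, which was at 0.345 to 0.521 CPM in controls 1 and 2 and cKO 1 to 3 and at 99.7 to 112.3 CPM in controls 3 to 5 and cKO 4. This split crossed the genotypes unevenly, and cKO 4 was the one cKO library in its set, so the fit on the Rps3a3-low libraries alone is given for the genes described in full where it changed whether they passed, and as a count for the other genes of the related lists. For Arid1a it gave -0.33 (adjusted p = 0.0822). Xist was at 744.7 to 904 CPM in controls 2 and 3 and cKO 3 and 4, and at 0.283 CPM or less in the others.

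Of the 10 genes, 9 had a positive log2 fold change and 1 a negative one. Thbs1, Thbs4, Comp, Postn and Fn1 rose, and none of the 10 fell. These 5 compare with 8.25% of all genes tested that passed the test with a higher level in cKO. Thbs4 and Comp also exceeded 1.5-fold, as did 4.01% of all genes in the upward direction. In Thbs4, Comp, Postn and Tnc every cKO library lay above every control library, which held for 8.16% of all genes. The median log2 fold change was 0.42 over the 10 genes and 0.01 over all genes tested. In whole ventricle a larger share of cells that make a transcript and more of that transcript per cell cannot be told apart.

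**Figure D1:**
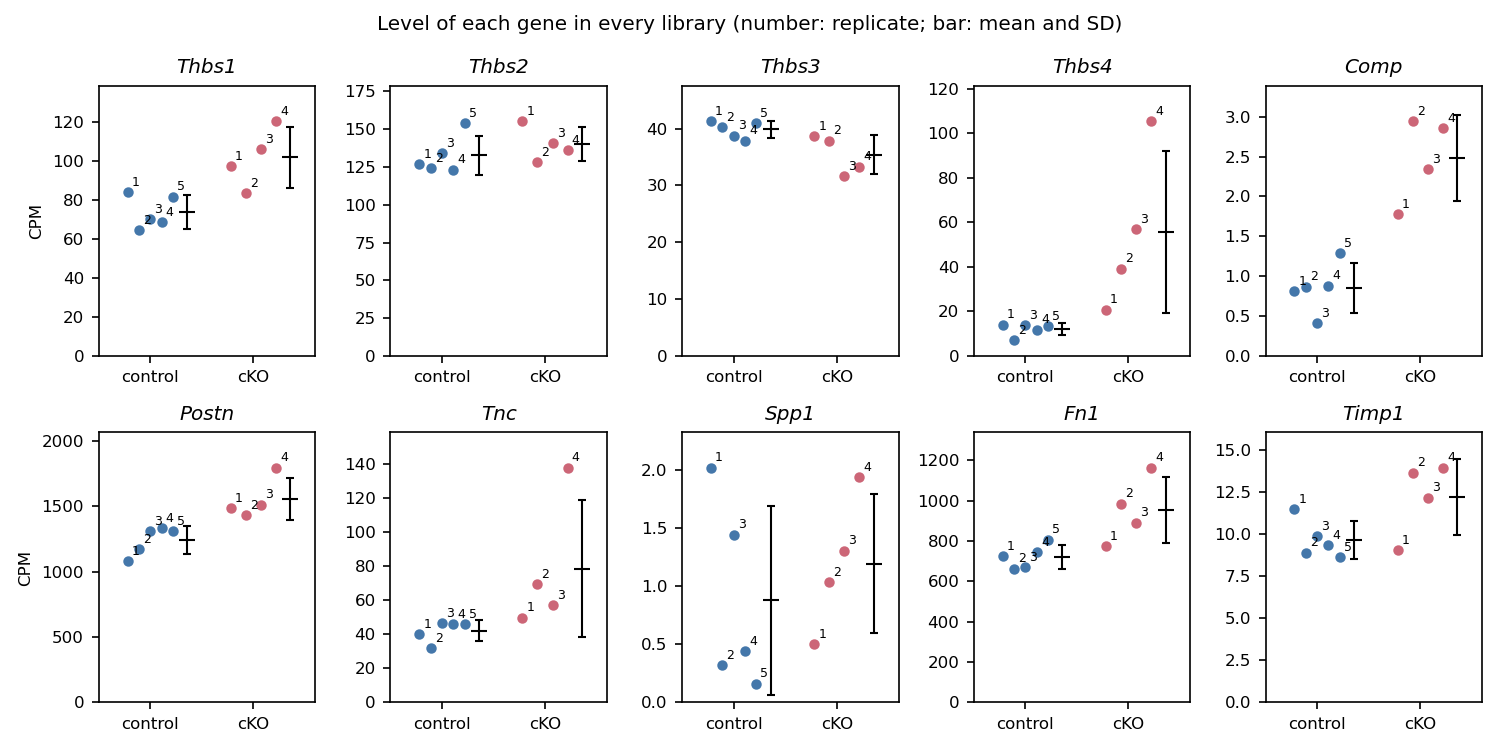
Level of each of the 10 genes in CPM on linear axes from 0, with 1 point per library numbered by replicate, 5 control (blue) and 4 cKO (red), and bars for the mean and SD of each group. All cKO points lie above all control points for Thbs4, Comp, Postn and Tnc, and cKO replicate 4 stands far above the other 8 libraries for Thbs4 at 105.4 CPM and for Tnc at 137.6 CPM.

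The thrombospondin genes share a conserved C-terminal region, so whether reads can be told apart between the 5 genes was checked first. Aligned coding sequences were 65.3% identical between Thbs1 and Thbs2, and 63.9% to 67.5% identical among Thbs3, Thbs4 and Comp. Pairs taken across the structural groups shared 53.5% to 58.3% of aligned bases. The most conserved 60-base stretch of coding sequence is printed for each gene, because it shows how alike the genes are where they are most alike. Capitals mark the 38 bases identical in all 5 genes. The stretches lie in exon 19 of Thbs1 (chr2:118123326-118123385, plus strand), exon 19 of Thbs2 (chr17:14670748-14670807, minus strand), exon 20 of Thbs3 (chr3:89224868-89224927, plus strand), exon 19 of Thbs4 (chr13:92755168-92755227, minus strand) and exon 16 of Comp (chr8:70380163-70380222, plus strand), in GRCm38 with GENCODE M21 annotation.
Thbs1: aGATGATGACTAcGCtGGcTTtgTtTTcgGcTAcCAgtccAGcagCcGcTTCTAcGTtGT
Thbs2: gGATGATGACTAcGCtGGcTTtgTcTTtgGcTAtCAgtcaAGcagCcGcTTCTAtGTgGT
Thbs3: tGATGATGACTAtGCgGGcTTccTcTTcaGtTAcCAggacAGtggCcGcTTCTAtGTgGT
Thbs4: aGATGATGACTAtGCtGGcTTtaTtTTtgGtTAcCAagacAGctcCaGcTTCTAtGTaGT
Comp: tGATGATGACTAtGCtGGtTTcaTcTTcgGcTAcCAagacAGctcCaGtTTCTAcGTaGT
Even here the remaining bases separate the genes from one another. Over whole transcripts, 0 of the 75-base windows of Thbs1, Thbs2, Thbs3, Thbs4 or Comp occurred on the same strand of another annotated gene, 75 bases being the read length.

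Thbs4 was the gene with the largest change. It lies on chr13:92751590-92794818 (minus strand) and its merged exons span 3289 bases. The control libraries held 14.1, 7.15, 13.7, 11.8 and 13.5 CPM, and the cKO libraries 20.7, 39.2, 56.8 and 105.4 CPM. Every cKO library was above every control, but the cKO libraries themselves differed 5.08-fold from lowest to highest, against 1.96-fold among controls. Controls averaged 12.0 ± 2.86 CPM (SD, n = 5) and cKO libraries 55.5 ± 36.3 CPM (SD, n = 4), which is 2.21 as a log2 fold change (SE 0.46, 95% interval 1.14 to 3.27, adjusted p = 0.0153). Thbs4 passed the test without any one library, with log2 fold changes from 1.69 to 2.48 and the lowest without cKO 4. Within the Rps3a3-low libraries the difference of mean log2 CPM was 1.83, and within the Rps3a3-high libraries 3.02. The fit on the 5 Rps3a3-low libraries alone gave 1.88 with an adjusted p of 0.195. With the Xist level as a covariate Thbs4 was at 2.02 (adjusted p = 0.0316).

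Comp, a matrix protein of tendon and cartilage, rose from a low level. It lies on chr8:70373558-70382066 (plus strand), with 2967 exon bases. Controls held 0.812, 0.869, 0.416, 0.881 and 1.29 CPM, from 15 to 40 counts per library, and cKO libraries held 1.77, 2.94, 2.35 and 2.86 CPM, from 57 to 118 counts. The groups did not overlap, and in contrast to Thbs4 the cKO libraries were spread less than the controls, 1.66-fold against 3.11-fold. Mean levels of 0.854 ± 0.311 CPM in control (SD, n = 5) and 2.48 ± 0.540 CPM among cKO libraries (SD, n = 4) differed by 1.54 on the log2 scale (SE 0.28, 95% interval 0.93 to 2.15, adjusted p = 0.00295). At an adjusted p under 0.05, Comp passed under all 21 alternatives run, 2 of which change only a threshold and not the fit, with log2 fold changes from 1.36 to 1.75, including the Rps3a3-low libraries alone (adjusted p = 0.0353).

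Thbs3, the third pentameric thrombospondin, was the one gene with a negative log2 fold change. It lies on chr3:89215180-89226837 (plus strand), with 4823 exon bases. The controls were tightly grouped at 41.3, 40.3, 38.7, 37.9 and 41.0 CPM, and the cKO libraries held 38.6, 37.9, 31.6 and 33.3 CPM. The ranges met, with cKO 1 and cKO 2 inside the control range and cKO 3 and cKO 4 beneath it. The means of 39.8 ± 1.48 CPM in controls (SD, n = 5) and 35.4 ± 3.43 CPM (SD, n = 4) differed by -0.17 on the log2 scale (SE 0.07, 95% interval -0.33 to -0.01), which did not pass after adjustment (adjusted p = 0.142). Thbs3 shares 318 exon bases with Mtx1 on the opposite strand, and the strand setting of the counting is not given in the sources used here. Mtx1 had a log2 fold change of 0.05 (adjusted p = 0.793). Thbs1, Tnc and Fn1 also share stretches with genes on the opposite strand, 64 of 5997, 31 of 7766 and 184 of 12252 windows of 75 bases.

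Thbs1, a trimeric thrombospondin that inhibits vessel growth and activates TGF-beta, rose modestly. It lies on chr2:118111876-118127133 (plus strand), with 6073 exon bases. Control libraries held 84.0, 64.4, 69.9, 68.5 and 81.6 CPM and cKO libraries 97.4, 83.2, 106.1 and 120.2 CPM. The groups met at their edges, since cKO 2 lay between controls 5 and 1. Thbs1 averaged 73.7 ± 8.63 CPM in control (SD, n = 5) and 101.7 ± 15.5 CPM among cKO libraries (SD, n = 4), higher by 0.47 on the log2 scale (SE 0.11, 95% interval 0.23 to 0.70, adjusted p = 0.0126). Thbs1 passed in 9 of 9 fits that left out one library, and did not pass in the Rps3a3-low libraries alone (0.36, adjusted p = 0.207) or with the fibroblast marker level as a covariate (0.51, adjusted p = 0.0645).

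Thbs2, the closest relative of Thbs1, did not pass. It lies on chr17:14665500-14694235 (minus strand), with 7003 exon bases. Controls held 127.1, 124.3, 134.2, 123.3 and 154.2 CPM and cKO libraries 155.3, 128.4, 140.8 and 136.1 CPM. The cKO values lay within the control range, except that cKO 1 was just above control 5. With means of 132.6 ± 12.8 CPM in control (SD, n = 5) and 140.1 ± 11.3 CPM among cKO libraries (SD, n = 4), the 95% interval of its log2 fold change ran from -0.09 to 0.25 around 0.08 (SE 0.08), and the adjusted p was 0.544. The difference between Thbs1 and Thbs2 in their changes was not tested.

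Compared per kilobase of merged exon, which allows levels of different genes to be set side by side, Thbs2 was the most abundant thrombospondin in every control library and Comp the least. Thbs2 made up 40.2% to 45.4% of the summed thrombospondin CPM per kb in controls and 24.6% to 41.7% in cKO. Thbs4 made up 5.55% to 9.66% in controls and 11.9% to 40.5% in cKO, so its share exceeded every control share in each cKO library. The share of Thbs3 ran the other way, with 17.5% to 21.3% in control and 8.72% to 15.1% in cKO libraries. Thbs1 held 26.8% to 30.7% in controls and 25.0% to 30.2% in cKO, and its ranges overlapped. The sum itself was 39.2 to 48.5 CPM per kb in controls and 52.8 to 79.1 CPM per kb in cKO, and a share of this sum moves when any of the 5 genes moves.

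**Figure D2:**
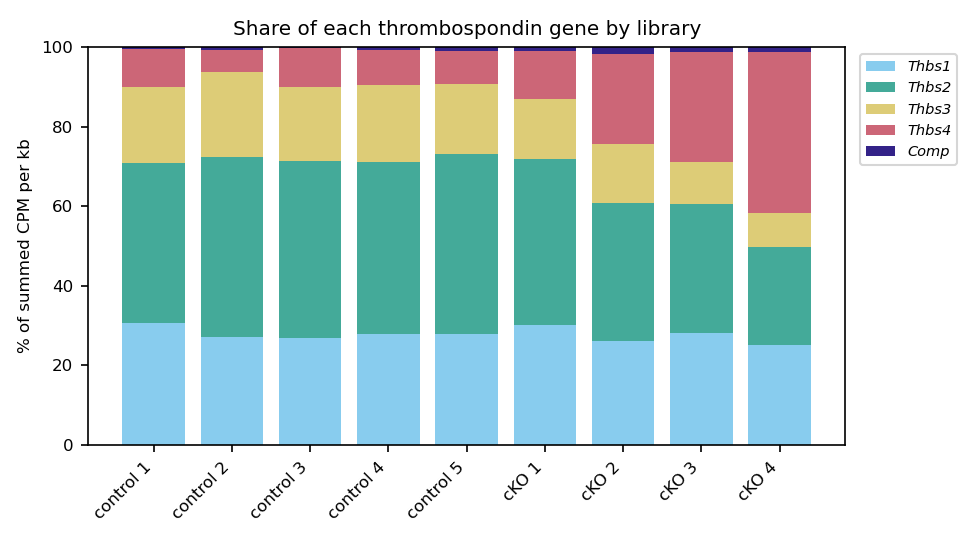
Share of each thrombospondin gene, in % of the summed CPM per kb of the 5 genes, as 1 stacked bar per library for 5 control and 4 cKO libraries. The Thbs4 band (red) is at most 9.66% in controls and widens from 11.9% in cKO 1 to 40.5% in cKO 4, where it is wider than the Thbs2 band at 24.6%.

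Among the other matrix proteins, Postn was the most abundant of the 10 genes. Periostin is made by activated fibroblasts and valve cells and promotes the crosslinking of collagen. The gene lies on chr3:54361109-54391037 (plus strand), with 8702 exon bases. Controls held 1084, 1176, 1310, 1335 and 1311 CPM and cKO libraries 1487, 1434, 1514 and 1797 CPM. The lowest cKO library was above the highest control by a small margin. The rise of Postn, from a mean of 1243 ± 109 CPM in controls (SD, n = 5) to one of 1558 ± 163 CPM in cKO (SD, n = 4), was 0.33 on the log2 scale (SE 0.09, 95% interval 0.14 to 0.51, adjusted p = 0.0211). Without control 2 the adjusted p was 0.0502 and without cKO 4 it was 0.0601, with log2 fold changes of 0.31 and 0.25.

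Fn1, which encodes the integrin ligand fibronectin, rose by a similar amount. It lies on chr1:71585520-71653200 (minus strand), with 11685 exon bases. Controls held 724.1, 662.7, 671.9, 745.4 and 806.9 CPM, and cKO libraries 776.0, 986.2, 891.5 and 1164 CPM. One cKO library, cKO 1, lay below control 5, and the other cKO libraries lay above all controls. Averages were 722.2 ± 58.7 CPM in control (SD, n = 5) and 954.3 ± 163.9 CPM among cKO libraries (SD, n = 4), 0.40 apart as log2 (SE 0.11, 95% interval 0.17 to 0.63, adjusted p = 0.0216). Fn1 no longer passed without control 2, control 3, cKO 2 or cKO 4 (adjusted p = 0.0503, 0.0572, 0.0567 and 0.0576). Its log2 fold changes in these fits were 0.37, 0.38, 0.39 and 0.29. It also did not pass in the Rps3a3-low libraries alone (0.35, adjusted p = 0.135).

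Tnc, a large hexameric protein of remodelling matrix, had the third largest log2 fold change but did not pass. It lies on chr4:63959785-64047015 (minus strand), with 7772 exon bases. The controls held 40.2, 31.7, 46.6, 46.0 and 46.1 CPM, and cKO libraries 49.7, 69.5, 57.2 and 137.6 CPM. All cKO libraries were above all controls, and cKO 4 stood apart from the other cKO libraries. Means of 42.2 ± 6.38 CPM in control (SD, n = 5) and 78.5 ± 40.3 CPM among cKO libraries (SD, n = 4) lay 0.90 apart on the log2 scale (SE 0.29, 95% interval 0.22 to 1.57), and the adjusted p was 0.0761. Leaving out cKO 4 lowered the log2 fold change to 0.48 and lowered the adjusted p to 0.0444. Leaving out cKO 1 gave 1.06 (adjusted p = 0.0358), and the DESeq2 test gave an adjusted p of 0.0275. With the Rps3a3 set as a term in the model Tnc also passed (1.06, adjusted p = 0.00236), and the differences of mean log2 CPM were 0.70 among libraries low in Rps3a3 and 1.57 among those high in it.

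Spp1, the macrophage- and bone-associated ligand osteopontin, was near the limit of detection. It lies on chr5:104435118-104441050 (plus strand), with 1648 exon bases. Controls held 2.02, 0.319, 1.44, 0.440 and 0.162 CPM, from 5 to 67 counts per library, and cKO libraries 0.498, 1.03, 1.30 and 1.94 CPM. The highest single value was in a control, and the control range enclosed that of the cKO libraries. Group means were 0.875 ± 0.811 CPM in control (SD, n = 5) and 1.19 ± 0.598 CPM among cKO libraries (SD, n = 4). Their difference of 0.45 in log2 (SE 0.65, adjusted p = 0.691) had a 95% interval from -0.98 to 1.88 and was not detectable with these libraries. Without cKO 4 it was 0.11, and the highest value without any one library was that without control 1. Spp1 shares 162 of 1895 windows of 75 bases with the overlapping transcript Gm42793 on the same strand.

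Timp1, the protease inhibitor of the group, lies on chrX:20870166-20874735 (plus strand), with 888 exon bases. Controls held 11.5, 8.92, 9.92, 9.34 and 8.63 CPM and cKO libraries 9.05, 13.7, 12.2 and 14.0 CPM. The cKO libraries other than cKO 1 lay above all controls. Timp1 averaged 9.67 ± 1.14 CPM in control (SD, n = 5) and 12.2 ± 2.25 CPM among cKO libraries (SD, n = 4), which at 0.34 in log2 (SE 0.14, 95% interval 0.04 to 0.64) did not pass (adjusted p = 0.119). Without cKO 1 it was 0.46 with an adjusted p of 0.0206.

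**Figure D3:**
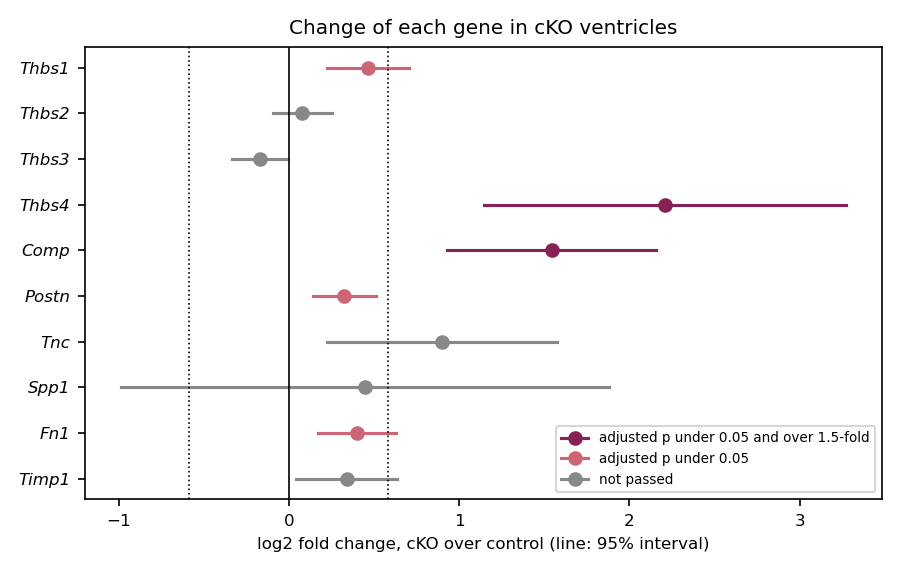
Change of each gene as log2 fold change, cKO over control, from the edgeR fit on 9 libraries, with its 95% interval as a line and dotted lines at a 1.5-fold change in either direction. Thbs4 (2.21) and Comp (1.54) stand to the right of 1.5-fold with their whole intervals, while Spp1 has the widest interval, from -0.98 to 1.88.

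Ordered by median CPM per kb in controls, Postn came first at 150.5, followed by Fn1 at 62.0, Thbs2 at 18.1, Thbs1 at 11.5, Timp1 at 10.5, Thbs3 at 8.35, Tnc at 5.92, Thbs4 at 4.11, Comp at 0.293 and Spp1 at 0.267. Neighbours in this order were separated in all libraries except for Thbs1 and Timp1, Tnc and Thbs4, and Comp and Spp1, whose ranges overlapped. In cKO libraries the first 4 places were the same, and Thbs4 stood in place 5 at 14.6 CPM per kb, where its range overlapped those of Thbs1 above it and Timp1 below it. Timp1 followed at 14.6, Tnc at 8.15, Thbs3 at 7.38, Comp at 0.877 and Spp1 at 0.709. Thbs3 was beneath both Tnc and Thbs4 in cKO medians and above both in control medians, but its range overlapped theirs in cKO, and in cKO 1 it lay above both, at 8.01 CPM per kb against 6.39 for Tnc and 6.31 for Thbs4.

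The cKO libraries did not contribute evenly. Replicate cKO 4 was the highest cKO library for 7 of the 10 genes, against 25.1% of all genes tested, and cKO 1 was the lowest for 6, against 27.6%. The spread of log2 CPM was wider among cKO than control libraries for 7 of the 10 genes, and for 52.6% of all genes. The SD of log2 CPM in cKO was 0.98 for Thbs4 and 0.65 for Tnc, against a median of 0.17 over all genes. Within both Rps3a3 sets, the mean log2 CPM of 8 of the 10 genes was higher in cKO and that of Thbs3 lower. In the Rps3a3-high set the cKO side is cKO 4 alone, and the share of all genes with this pattern was not computed. For Spp1, one of the 8, the difference in the Rps3a3-low set was 0.087 and the fit on those libraries gave -0.29. The fibroblast marker level did not follow this order, being highest in cKO 1 at 0.24 and lowest among the cKO libraries in cKO 4 at -0.01, as mean log2 CPM centred on the 9 libraries.

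**Figure D4:**
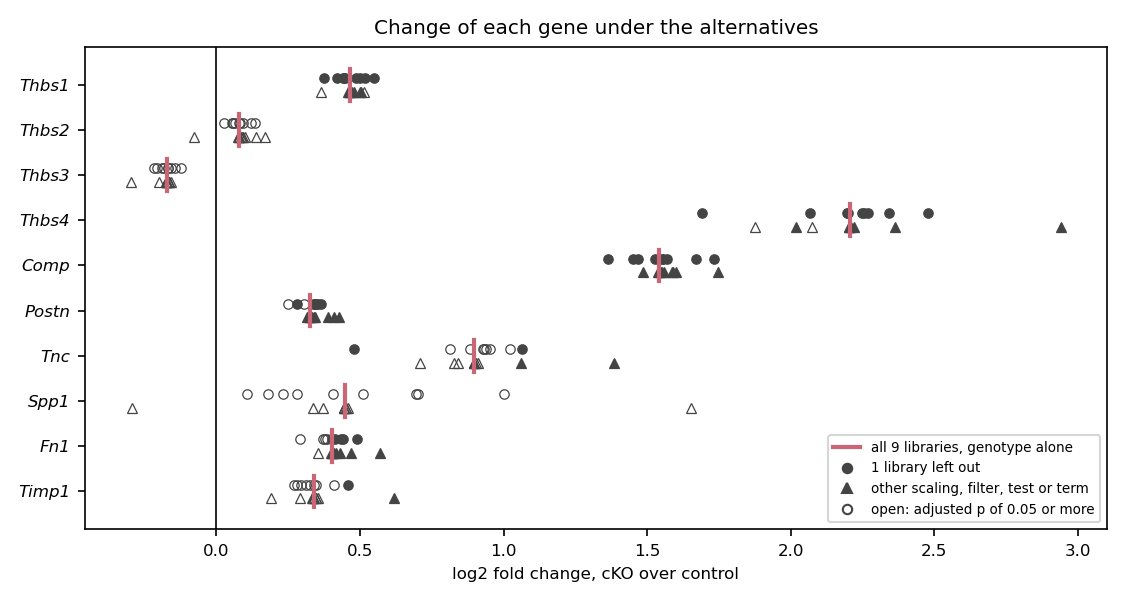
The log2 fold change of each gene, cKO over control, with all 9 libraries (red line), with 1 library left out (circles) and with another scaling, filter, test or model term (triangles), filled where the adjusted p was under 0.05. All points of Comp are filled and lie between 1.36 and 1.75, while Spp1 runs from -0.29 to 1.65 with no filled point.

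Sequences upstream of the start were looked at for the gene with the largest change and for the most abundant one, since letters recognised by known regulators can be read there. RefSeq on GRCm38.p6 had promoter entries for 7 of the 10 genes. The 250 bases upstream of Thbs4 (chr13:92794819-92795068, minus strand) and of Postn (chr3:54360857-54361106, plus strand) are printed 5′ to 3′, with motif matches in capitals.
Thbs4: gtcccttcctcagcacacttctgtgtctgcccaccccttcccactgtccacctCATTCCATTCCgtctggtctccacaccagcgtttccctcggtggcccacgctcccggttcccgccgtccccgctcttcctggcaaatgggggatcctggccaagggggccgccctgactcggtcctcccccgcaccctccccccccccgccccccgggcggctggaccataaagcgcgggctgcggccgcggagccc
Postn: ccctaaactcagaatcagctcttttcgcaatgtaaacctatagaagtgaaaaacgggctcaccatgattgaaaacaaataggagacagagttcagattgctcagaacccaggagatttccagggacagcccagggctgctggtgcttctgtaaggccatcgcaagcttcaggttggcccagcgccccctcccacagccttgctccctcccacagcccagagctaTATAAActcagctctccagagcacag
The letters searched, on both strands, were GGAATG of TEAD factors, TGANTCA of AP-1, TATAAA and the CArG box of SRF. Thbs4 held a pair of overlapping GGAATG matches on the opposite strand, at -197 to -192 and -192 to -187 from the start. Timp1 held one at -247, and 12.64% of 32851 mouse windows of the same length held at least 1. In the printed window of Postn, TATAAA lay at -26 to -21, and the other entry of Postn held no match. Thbs2, Tnc and Spp1 held it farther upstream, in Tnc as 1 site in 2 overlapping windows. The share over all windows was 12.37%, counted per window and not per gene. No window of the 7 genes held the AP-1 letters or a CArG box, which are found in 6.75% and 1.47% of windows. These are matches of letters, and binding was not measured.

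Genes whose pattern over the 9 libraries was most like that of each gene that rose were found as those with the smallest root mean square difference of centred log2 CPM among 11064 genes with a mean of at least 5 CPM. For Thbs4 they were Scube2 (0.332), P3h2 (0.438) and Col9a2 (0.453), with log2 fold changes of 2.14, 1.76 and 2.19. For Comp they were Gm12295 (0.337), Col12a1 (0.338) and Myl7 (0.342). The 3 nearest to Thbs1 were Col4a3, Gria3 and Adam19, at 0.121 to 0.128. Dpysl3, Pon3 and Nln were nearest to Postn at 0.0392 to 0.0545, and Hdac6, Fat1 and Atic to Fn1 at 0.0524 to 0.0566. Likeness over these libraries takes in the genotype difference itself.

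Genes related to the 10 were counted in 5 lists, to be read beside the 8.25% of all genes that rose, the 8.03% that fell and the 16.3% that passed in either direction. Over the lists 20 genes passed with all libraries. In the Rps3a3-low libraries alone 6 did, all of them higher in cKO, so none of the list genes given as falling passed as lower there. Other matricellular genes moved in both directions. Of 16 such genes 14 were tested, 5 rose and 3 fell, and their median log2 fold change was 0.08. Ccn5, a member of the CCN family that antagonises fibrosis, rose by 1.82 on the log2 scale, with means of 1.24 ± 0.523 CPM in control (SD, n = 5) and 4.38 ± 0.387 CPM among cKO libraries (SD, n = 4) (SE of the change 0.26, adjusted p = 0.00058). Ccn1 and Ccn2, widely used as targets of YAP and TEAD, rose by log2 fold changes of 0.81 (SE 0.15, adjusted p = 0.00436) and 0.74 (SE 0.13, adjusted p = 0.00243). No cKO library overlapped a control library for these 3 genes. Smoc1 and Fbln5 also rose, and Ccn3, Smoc2 and Tnr fell, these 5 being named after their values were seen. With the Rps3a3-low libraries alone the log2 fold change of Ccn1 was 0.82 and its adjusted p 0.095.

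Of 17 genes for receptors of these proteins, 13 had a positive log2 fold change, 3 rose, none fell and none was called, with a median of 0.22 beside 0.01 over all genes and 8.25% of all genes passing upward. The 3 were the syndecan Sdc1 (0.46), the endocytic receptor Lrp1 (0.35) and the integrin subunit Itgb5 (0.32), named after their values were seen. Neither Cd36 nor Cd47 passed. Among 13 tested TIMPs and extracellular proteases, 3 rose and 2 fell, 5 of 13 beside 16.3% of all genes, with a median of -0.04. Timp4, the TIMP known for its cardiac expression, fell, with means of 4.13 ± 1.05 CPM in control (SD, n = 5) and 2.16 ± 0.521 CPM among cKO libraries (SD, n = 4). Its log2 change was -0.94 (SE 0.22, adjusted p = 0.0135), and -0.55 in the Rps3a3-low libraries alone (adjusted p = 0.259). Adamts1 (0.50), Mmp14 (0.43) and Adamts4 (0.43) rose and Timp3 fell (-0.42), again named after their values were seen.

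Genes of the pathways that Thbs4 and Thbs1 are known for were counted in the same way. Of 11 genes for ATF6 and chaperones of the endoplasmic reticulum, none rose and 1 fell, Atf6 itself (-0.28, adjusted p = 0.0281), with a median of 0.05, and 1 of 11 is close to the 8.03% of all genes that fell. Of 11 genes of the TGF-beta axis, 2 rose and 1 fell, beside 8.25% and 8.03% of all genes, with a median of 0.19. Ltbp2, a latent TGF-beta binding protein family member, averaged 10.9 ± 1.63 CPM in control (SD, n = 5) and 22.7 ± 5.97 CPM among cKO libraries (SD, n = 4), and rose by 1.07 in log2 (SE 0.17, adjusted p = 0.00136). The co-receptor Tgfbr3 fell (-0.71, SE 0.12, adjusted p = 0.00139). In the Rps3a3-low libraries alone Ltbp2 was at 0.85 (adjusted p = 0.0726) and Tgfbr3 at -0.57 (adjusted p = 0.0987). Tgfb3 was the other gene that rose (0.48).

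**Figure D5:**
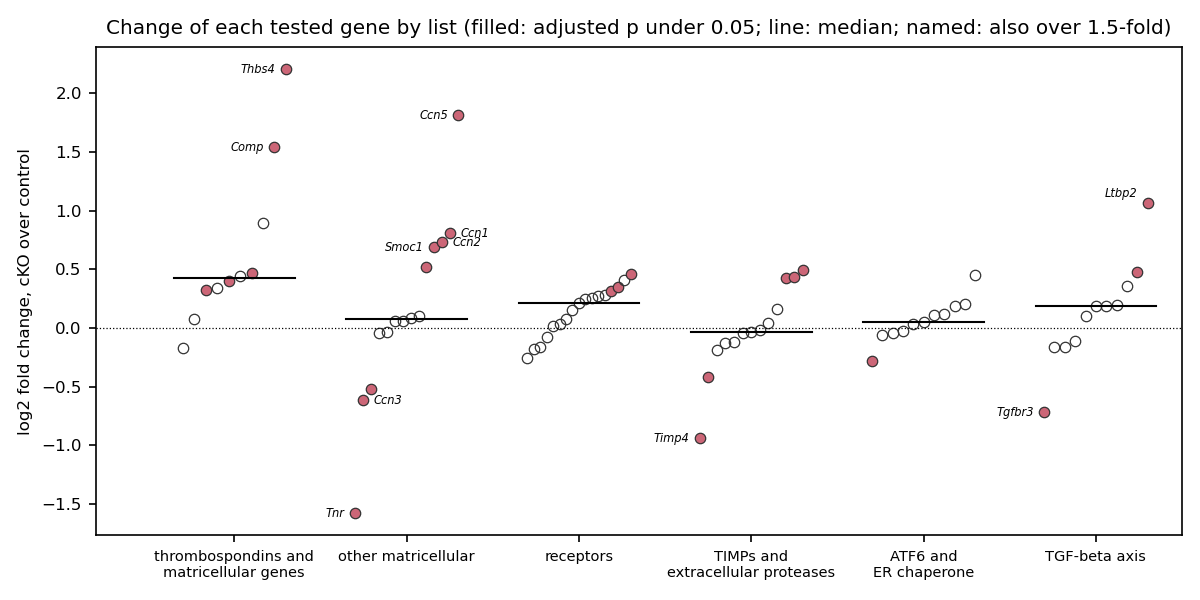
Change as log2 fold change, cKO over control, of every tested gene in the 10-gene group and in 5 related lists, 1 point per gene, filled at an adjusted p under 0.05, with the list median as a line and names on genes that also changed by more than 1.5-fold. The medians are 0.42 for the thrombospondin and matricellular genes, 0.08 for other matricellular genes, 0.22 for receptors, -0.04 for TIMPs and proteases, 0.05 for ATF6 and chaperones and 0.19 for the TGF-beta axis.

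Markers of the cell types that make these proteins were measured beside them. Of 8 fibroblast markers, 3 rose (Col1a1 by 0.52, Col1a2 by 0.40 and Tcf21 by 0.48 on the log2 scale) and none fell, beside 8.25% of all genes that passed upward. Dpt (-0.26), Dcn (-0.045), Lum (0.06), Pdgfra (0.11) and Col3a1 (0.14) did not pass, and the list median was 0.13. The summed level was 5855 to 7220 CPM in controls and 6973 to 8330 CPM in cKO. Their mean log2 CPM, centred on the 9 libraries, was 0.24, 0.08, 0.066 and -0.01 in cKO 1 to 4 and at most 0.019 in controls. As a covariate this level partly follows the genotype, so the fit cannot separate it from genotype. With the fibroblast marker level as a covariate, Thbs4, Comp, Postn and Fn1 still passed, and Timp1 (0.62, adjusted p = 0.0374) and Tnc (1.38, adjusted p = 0.0224) passed as well, while Thbs1 did not pass (adjusted p = 0.0645). The 4 called in that fit were Thbs4, Comp, Tnc and Timp1. Of 6 tested markers of tendon, valve and cartilage, where Comp, Thbs4 and Tnc are abundant, Tnmd and Sox9 rose and none fell, again beside 8.25% of all genes. Scx (0.87, adjusted p = 0.0607), Fmod (0.37), Acan (-0.22) and Prg4 (-0.092) did not pass, the list median was 0.56, and its sum was 34.5 to 51.7 CPM in controls and 51.2 to 63.0 CPM in cKO. Tnmd, the tendon marker tenomodulin, averaged 0.543 ± 0.320 CPM in control (SD, n = 5) and 3.70 ± 0.807 CPM among cKO libraries (SD, n = 4). It rose by 2.77 in log2 (SE 0.35, adjusted p = 0.000281), and Sox9, a regulator of cartilage and valve, changed by 0.76 (SE 0.10, adjusted p = 0.000361). The part of these cells in the rise of Comp and Thbs4 was not tested.

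None of 8 macrophage markers passed, but 7 had a positive log2 fold change, with a median of 0.39, up to 0.71 for Lyz2 (adjusted p = 0.0717), and with sums of 109 to 178 CPM in controls and 130 to 234 CPM in cKO. Among 4 tested platelet markers none passed, 3 were positive and the median was also 0.39, with sums of 7.99 to 13.5 CPM and 10.9 to 13.1 CPM and Gp9 and Gp6 at means beneath 0.1 CPM. Both cell types are sources of matricellular proteins, Spp1 in macrophages and Thbs1 in platelets, and their part in the results was not tested. None of 8 mural markers passed (sums of 2084 to 2179 CPM and 2078 to 2397 CPM), while Tek and Erg fell among 8 endothelial markers (1612 to 1734 CPM and 1546 to 1685 CPM). Of 8 epicardial markers only 2 had a positive log2 fold change, and the list median was -0.39. Tbx18 rose (0.59, adjusted p = 0.00973) and Wt1 fell (-0.40), with list sums of 91.4 to 176 CPM and 106 to 150 CPM. Among 5 tested atrial markers Myl7 (1.20, SE 0.22, adjusted p = 0.00493) and Dkk3 (0.31) rose, while Sln (-1.25), Nr2f1 (-0.28) and Myl4 (0.17) did not pass, and the list median was 0.17. Their sums were 109 to 203 CPM in controls and 190 to 256 CPM in cKO, with Myl7 alone at a mean of 44.8 CPM in controls and 102.8 CPM in cKO, and Bmp10 was at a mean beneath 0.1 CPM and at 0 in every cKO library. Pln and Myl2 fell among 8 cardiomyocyte markers, and none of the 3 tested skeletal muscle markers passed. For these lists too, 8.03% of all genes fell and 8.25% rose. The part of atrial tissue in any of the changes was not tested.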

How the data were processed

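The libraries were made by the authors from total RNA of P7 ventricles with a stranded mRNA kit and sequenced as single-end reads of 75 bases, aligned to mm10. The submitters' processing notes name STAR 2.4.2a and HTSeq 0.6.1, and the annotation and strand setting are not given in the sources used here. The deposited values are whole-number counts per gene, neither filtered nor normalized, and the counts of each library sum to 31011055 to 40073801. Of 38293 gene IDs, 36345 matched GENCODE M21, with 99.82% of counts. The study's methods give fewer controls than the labels, and all 5 labelled control libraries were used.

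Genes were filtered with filterByExpr (minimum count 10), scaled by TMM and tested with edgeR 4.0.16 (two-sided quasi-likelihood test, genotype alone, R 4.3.3), with Benjamini-Hochberg adjustment over 15318 genes, which was tested on simulated data first. SE is the log2 fold change divided by the square root of F, and intervals use the t quantile of the fit. CPM were computed by edgeR's cpm function on the TMM-scaled total of tested genes, and log2 CPM used a prior count of 2. Coding sequences were aligned with MAFFT 7.526. Nothing in the labels says more than that libraries are separate samples, so p-values measure the spread between these samples. Alternatives included DESeq2 1.42.0, other scalings and filters, model terms and leaving out each library.

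The 10 genes and all lists were chosen with earlier results of these data known. A gene of the TGF-beta list is not reported here and was left out of that list's counts. Named were the 10 genes, Arid1a, in each list up to 3 called genes with the largest absolute log2 fold change and a mean of at least 1 CPM, and for each of the 10 genes that passed its 3 most similar genes. Genes named outside this rule are said to be so, or make up a count of 5 or fewer, and were then chosen after their values were seen.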

Additional observations from a re-analysis of the deposited data

Results flagged for a closer look

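Among 42 groups of libraries, 21 named genes in each genotype, 1 held a library whose gap to the nearest other exceeded Dixon's 95% critical value, and chance alone gives about 1 in 20 groups. It was cKO replicate 3 for Ccn1, at 75.2 CPM against 56.2 to 58.4 CPM in the other 3 cKO libraries. Ccn1 was above every control in all 4 cKO libraries. None of the 10 thrombospondin and matricellular genes had such a library, cKO 4 for Thbs4 and Tnc included.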

How the results depend on the processing

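The number of all genes called was 1030, 2493 with no fold threshold, 620 in the Rps3a3-low libraries alone and 909 to 1171 without any one library. Of the 10 genes, 2 were called, 5 with no fold threshold, 1 at an adjusted p under 0.01, 1 with the replicate block, 1 in the Rps3a3-low libraries, 4 with the fibroblast covariate and 2 to 3 without any one library, Tnc being the third without cKO 1. The 5 that passed became 1 at an adjusted p under 0.01, 2 in the Rps3a3-low libraries, which hold fewer samples, and 3 to 7 without any one library, the lowest without control 2 and the highest without cKO 1. Of the 5 related lists, 20 genes passed, 10 at an adjusted p under 0.01, 13 with the replicate block, 6 in the Rps3a3-low libraries and 14 to 19 without any one library. The log2 fold change reversed for Spp1 in the Rps3a3-low libraries (-0.29, adjusted p = 0.893) and for Thbs2 with the fibroblast covariate (-0.077, adjusted p = 0.708). The cause was not tested.

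With the replicate block Thbs4 was at 2.07 with an adjusted p of 0.116, Timp4 at -0.81 with 0.0595, and 888 genes were called, of which 827 were among the 1030. The labels do not say that same-numbered libraries are paired. Such libraries correlated at 0.011 to 0.232 over 4 pairs, and 0 of 4 cKO libraries correlated best with their own number. Whether any of them shared a litter was not tested. In the Rps3a3-low libraries Ltbp2 (0.85), Tgfbr3 (-0.57), Timp4 (-0.55) and Arid1a (-0.33) no longer passed, nor did Myl7 (0.81) and Tbx18 (0.62) with the fibroblast covariate. Timp4 shrank by more than 1.5 times and the others by less, Tbx18 being no smaller. With the Rps3a3 set as a term, 6 of the 10 genes passed and 3 were called. Spp1 held 5 to 67 counts per control library and varied 12.5-fold between them.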
